A study of Homo sapiens with 4 samples.

Results

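RNA bound by the methyltransferase NSUN2 was examined at 10 core genes of the Hippo pathway, namely YAP1, WWTR1, TEAD1, TEAD2, TEAD3, TEAD4, LATS1, LATS2, STK3 and STK4. The genes were chosen by name, and every peak that the authors annotated with one of these symbols was taken, along with each merged peak that such a peak touched by at least 1 base. All 10 genes carried a peak in at least 1 list, among 15017 genes that did so. They accounted for 111 of the 48104 peaks called with lactate, for 184 of the 95785 peaks called with ddH2O and for 218 of the 116484 merged peaks.

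In RIP-seq, RNA that comes down with an antibody, here anti-NSUN2, is sequenced beside RNA of the same lysate set aside as input. The cells were wild-type PANC-1, an established line from a human pancreatic ductal adenocarcinoma, and the groups were sodium lactate at 30 mM or ddH2O as vehicle, both for 24 h. Each group had 1 IP library and 1 input library, 4 libraries in all, so no value below has a replicate check, and a ratio of the IP libraries compares those libraries and not the conditions. The libraries were made with a template-switching kit that does not mark strand, so RNA of a gene and of an antisense partner cannot be told apart, and the labels and the study's methods differ on how long the antibody was incubated. Among the 4 marker genes of the line, KRT8, KRT18 and KRT19 had peaks in both lists and VIM had 1 with ddH2O. Of 7 marker genes of other pancreatic or stromal cells, COL1A1 had 1 peak with lactate and PTPRC had 1 with ddH2O, while PRSS1, CPA1, INS, GCG and PECAM1 had none. A peak is a call of IP over input, so its absence does not show that a gene was silent.

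The Hippo pathway restrains organ size and cell proliferation through a chain of kinases. MST1 and MST2 phosphorylate LATS1 and LATS2, which in turn phosphorylate the coactivators YAP and TAZ and hold them in the cytoplasm. When the chain is inactive, YAP and TAZ enter the nucleus and switch on genes together with TEAD transcription factors, a program that is often active in pancreatic ductal adenocarcinoma.

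Most NSUN2 peaks on these genes lay in introns. Introns held 91 of the 111 lactate peaks (82.0%, 95% Wilson interval 73.8 to 88.0%) and 152 of the 184 ddH2O peaks (82.6%, 76.5 to 87.4%). Over all genes the intron share was 61.2% with lactate and 60.7% with ddH2O. The paper gives a different ranking, with NSUN2 sites mostly in coding sequence and then in the 3' UTR. Its ranking is of regions of mRNA transcripts, while the shares here are of all peaks annotated to a gene, introns included. The bases may therefore be unlike. The 3' UTR held 10 and 16 of the Hippo gene peaks (9.01% and 8.70%), against 16.4% and 14.0% over all genes. Exons held 9 and 15 (8.11% and 8.15%), against 21.0% and 23.5% over all genes. The 5' UTR held 1 in each list, both on YAP1 (0.901% and 0.543%), against 1.43% and 1.76%. The Hippo genes had a median RefSeq span of 101 kb, while the 12224 protein-coding genes with a peak and a span had a median of 36.8 kb, and the part of gene length in the intron share was not tested. Wilson intervals cover counting error only, as peaks of 1 library are not replicates.

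**Figure D1:**
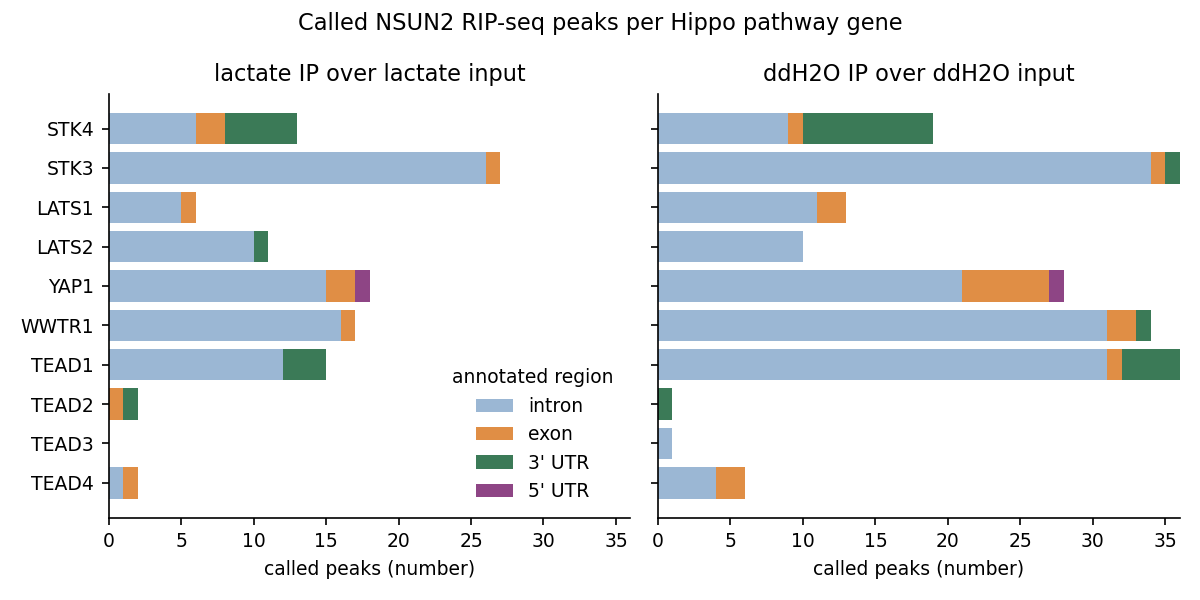
Called peaks per gene (number, horizontal axis) in the lactate list (left) and the ddH2O list (right), with colours for the annotated region and genes ordered from the upstream kinases to the TEAD factors. Introns make up most of the bars of STK3, LATS1, LATS2, YAP1, WWTR1 and TEAD1 but not those of STK4 and TEAD2. STK3 has 27 and 36 peaks, while TEAD3 has none with lactate and 1 with ddH2O.

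Peak numbers were compared between genes per length. The genes carried a median of 0.868 lactate peaks and 1.23 ddH2O peaks per 10 kb of span. Protein-coding genes with a peak carried medians of 0.473 (quartiles 0.0693 and 1.03) and 1.06 (0.496 and 1.85). Both medians of the Hippo genes thus lay between these quartiles. YAP1 had the highest rate in both lists, at 1.46 with lactate and 2.28 with ddH2O. STK3, the longest gene at 599 kb, had 0.451 and 0.601 despite its many peaks. TEAD4 had 0.246 and 0.738, and TEAD3 had 0 and 0.426. More peaks were thus listed with ddH2O on 8 of the 10 genes, whereas LATS2 had 11 with lactate and 10 with ddH2O, and TEAD2 had 2 and 1. The ddH2O list as a whole was also the longer, and when it was shortened by score to the length of the lactate list it held 104 Hippo gene peaks.

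Of the lactate peaks on these genes, 76 of 111 (68.5%, 95% Wilson interval 59.3 to 76.4%) overlapped a ddH2O peak, and 75 of the 184 ddH2O peaks (40.8%, 33.9 to 48.0%) overlapped a lactate peak. The shares over all genes were 57.8% and 29.1%. With an overlap of 50% of both peaks required, 45 peaks of each list remained, or 40.5% and 24.5% of the Hippo gene peaks, against 17738 of 45343 and 17739 of 88566 peaks over all genes, so the lactate share lay near that of all genes (39.1%). At the 77 overlapping pairs, enrichment over input had a median fold of 3.76 for the lactate calls and 4.25 for the ddH2O calls, and the lactate fold was the greater at 36 of them (46.8%). Over all genes the medians were 3.94 and 4.73, and the lactate fold was the greater at 40.2% of pairs. A fold of this kind sets each IP against its own input and does not compare the IP libraries.

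Many of these peaks were thin. A fold that at least 1000 peaks of the same list share to the last digit was carried by 52 of the 111 lactate peaks (46.8%) and 105 of the 184 ddH2O peaks (57.1%). Over all peaks the shares were 52.3% and 59.0%. The windows of 2000 bases around these peaks held a median of 7 reads for the lactate calls and 5 for the ddH2O calls, so they rest on few reads. On Hippo genes, 50 lactate peaks and 98 ddH2O peaks had a q-value under 0.05 (45.0% and 53.3%), close to the 43.8% and 50.1% over all genes.

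Reads rather than calls were then compared between the IP libraries. Whole reads were recovered for each window from the deposited normalized densities, and the windows of the Hippo genes held 4983 reads with lactate and 8946 with ddH2O, 1.80 times as many. All windows together held 9756054 reads in the one and 9553835 in the other, 0.979 times as many with ddH2O. With MT-RNR2 and MALAT1 left out they held 1945000 and 3536821, 1.82 times as many. The windows of those genes thus carry most of the reads, and the factor of the Hippo genes is close to that of the sums without them, not to that of the full sums. These sums count some reads more than once, because 108 of the 218 windows overlapped a neighbour. Depth and total binding cannot be told apart in them.

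Ratios of lactate over ddH2O therefore depend on how the libraries are scaled, and each is given under the authors' own rescaling (MAnorm) and, where it matters, after scaling by the library sums without MT-RNR2 and MALAT1. A call of higher or lower required a merged peak to pass 2-fold with at least 10 reads over both libraries, a number that 133 of the 218 merged peaks of the Hippo genes had. TEAD3 had no merged peak with that many reads. Under the authors' scaling, 13 of the 133 were higher with lactate and 17 were lower (9.77% and 12.8%). Of all 63903 merged peaks with as many reads, 11.3% were higher and 24.9% were lower. Under library sums, 34 were higher and 7 were lower (25.6% and 5.26%), where 23.5% of all merged peaks were higher and 13.0% were lower. Higher calls thus made up 43.3% of the Hippo gene calls under the first scaling and 82.9% under the second, and over all merged peaks 31.2% and 64.4%. Under the first scaling the larger share on Hippo genes rests on fewer lower calls, as higher calls were not more frequent there than over all merged peaks.

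The log2 ratio of a merged peak was greater under library sums by a median of 0.63. The median of all merged peaks was -0.25 under the authors' scaling and 0.18 under library sums, and the Hippo genes moved with it. Their median was -0.09 under the authors' scaling and 0.19 under library sums, 0.16 and 0.01 above the median of all merged peaks. No common direction for the 10 genes can therefore be read from these libraries. Both scalings called 13 of the 133 higher and 7 lower (9.77% and 5.26%), where both called 11.2% of all merged peaks higher and 13.0% lower. All 13 higher calls under the authors' scaling lay in introns, as did 13 of the 17 lower calls, while introns held 108 of the 133 merged peaks compared. Over all merged peaks, introns held 5656 of the 7213 higher calls and 8594 of the 15911 lower calls (78.4% and 54.0%). None of the 13 higher calls on Hippo genes had 50 reads, a number that 37 of their 218 merged peaks reached. The same count of higher calls was not made over all merged peaks.

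**Figure D2:**
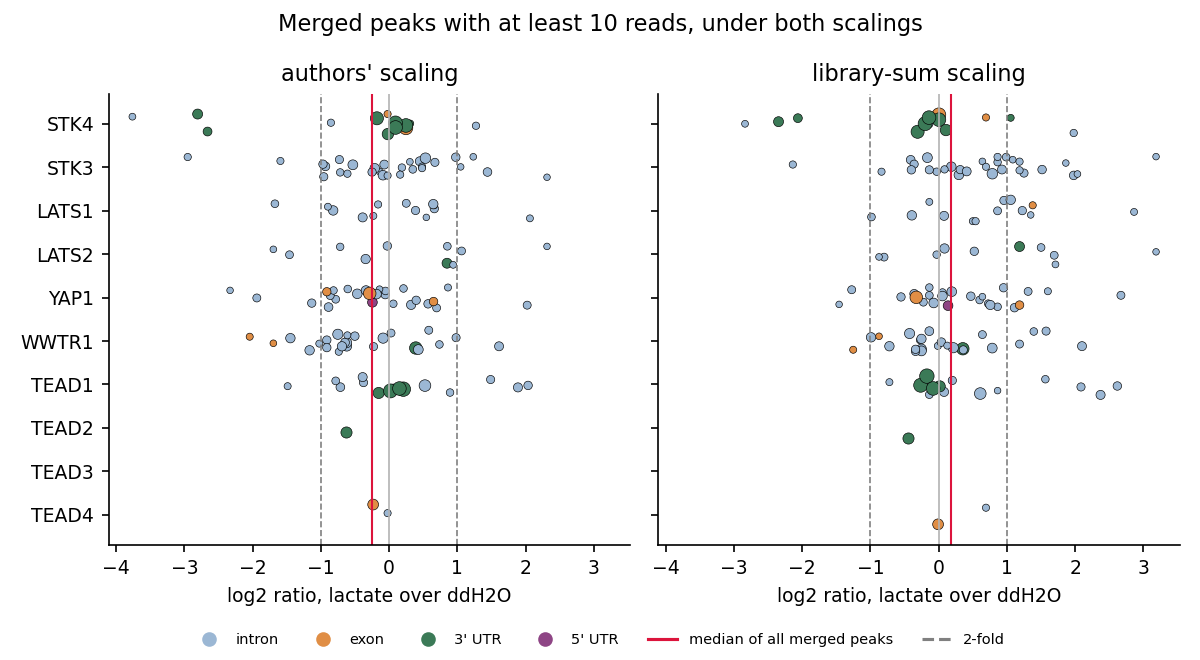
Log2 ratio of lactate over ddH2O (horizontal axis) for the 133 merged peaks of the Hippo genes with at least 10 reads, under the authors' scaling (left) and library sums (right); each point is a merged peak, coloured by region and larger with more reads, the dashed lines mark 2-fold and the red line the median of all merged peaks. Points with few reads shift to the right between the panels and those with most reads shift little or to the left, and the latter stay within 2-fold.

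Being called in a list and having more reads in that IP were not the same. Of 47 merged peaks called with ddH2O alone, 12 had a log2 ratio above 0 under the authors' scaling, and 5 of the 17 called with lactate alone had one below 0. The same held for 18.4% and 19.8% of all merged peaks called in 1 list. Under that scaling, Hippo gene peaks called with ddH2O alone gave 13 of the 17 lower calls and 0 higher ones. Those called with lactate alone gave 5 of the 13 higher calls and 1 lower. Over all merged peaks, those called with ddH2O alone gave 13503 of the 15911 lower calls. Those called with lactate alone gave 4223 of the 7213 higher calls. Peaks called in both lists had a median log2 ratio of -0.02 under the authors' scaling and 0.21 under library sums.

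Windows have 1 length, so their reads could be ranked between genes, although IP reads also follow the amount of RNA. The window with the most reads held 1633 over both libraries at TEAD1, 1131 at STK4, 415 at YAP1, 376 at WWTR1, 165 at TEAD2, 131 at TEAD4, 111 at STK3, 79 at LATS2, 59 at LATS1 and 8 at TEAD3. Exact 95% Poisson intervals of neighbours in this order overlapped in both libraries for TEAD2 and TEAD4, for TEAD4 and STK3 and for STK3 and LATS2. They overlapped in 1 library for YAP1 and WWTR1 (lactate) and for LATS2 and LATS1 (ddH2O). The order differs within the lactate IP, where WWTR1 (155 reads) stood above YAP1 (126) and STK3 (54) above TEAD2 (47) and TEAD4 (46), and within the ddH2O IP, where LATS1 (42) stood above LATS2 (35). These intervals, too, cover only the counting of reads in a single amplified library, so they describe the order and do not test it. The order therefore did not follow the roles of the genes. TEAD1, YAP1 and WWTR1 stood with the kinase gene STK4 at the top, and TEAD2 and TEAD4 with the kinase gene STK3 in the middle. Both LATS genes were near the bottom, above only TEAD3.

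These leading windows were mostly at the end of the gene. The summit lay within 2 kb of the RefSeq gene end in 6 of the 9 genes with at least 10 reads, namely TEAD1, TEAD2, TEAD4, STK4, WWTR1 and LATS2, where 48.3% of 10059 protein-coding genes showed the same. The final 10% of the 10 gene spans held 27 of the 218 merged peaks and 57.7% of their reads. TEAD1 and STK4 supplied 6624 of these 8040 reads, in part from overlapping windows, and over the other 8 genes the share was 30.4%. The pooled share thus rests largely on TEAD1 and STK4. It was not computed over all genes, so it does not set these genes apart.

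**Figure D3:**
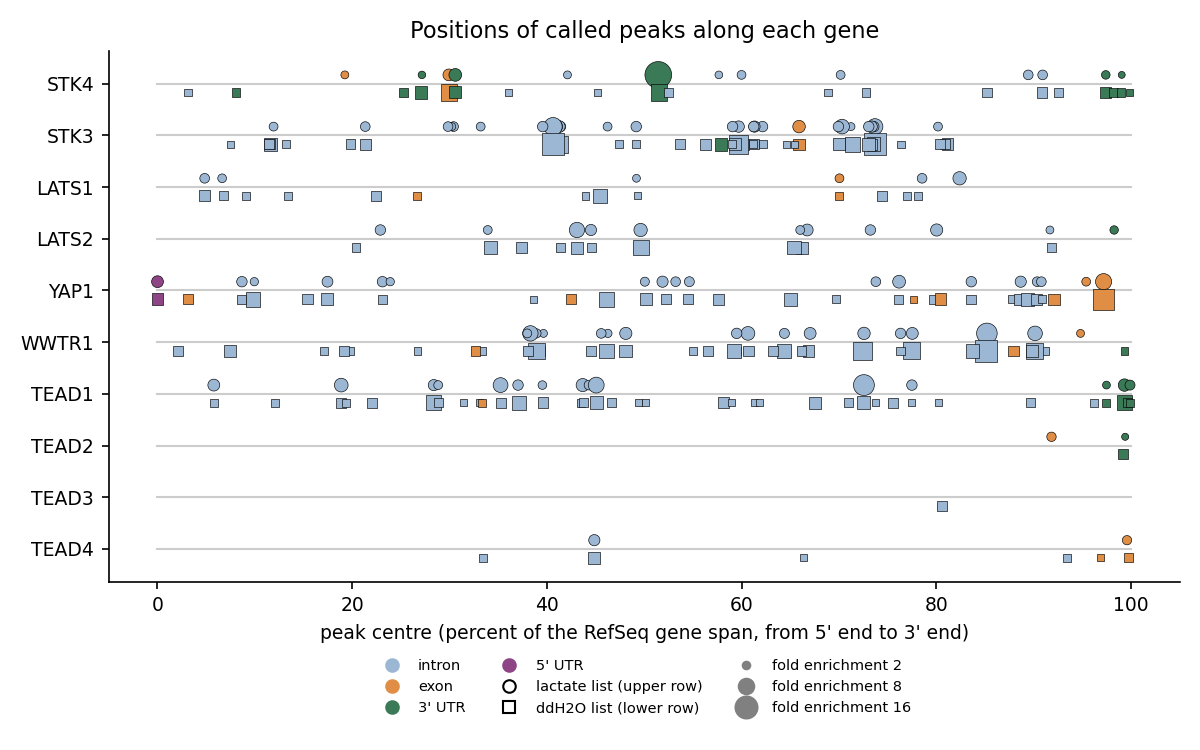
Centre of each called peak as a percentage of its gene's RefSeq span from the 5' end to the 3' end (horizontal axis), with the lactate list above and the ddH2O list below each gene's line; colour gives the region and size the fold enrichment over input. TEAD1, STK4 and WWTR1 have 3' UTR peaks at the end of the span, YAP1 has a 5' UTR peak at the start in both lists, and the largest fold, 23.6, stands near the middle of STK4.

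STK4 (ENSG00000101109, chr20:44966512-45080021 in GRCh38) encodes MST1, 1 of the kinases at the head of the chain. It had 13 peaks with lactate and 19 with ddH2O, of which 5 and 9 lay in 3' UTRs, more than any other Hippo gene. Some of them lay well before the gene's end. The authors annotated these to 3' UTRs of other transcripts than the peaks at the end, so they are not parts of a single 3' UTR. The 3' UTR peak at chr20:44997016-44997478 held 7 reads with lactate and 73 with ddH2O, a log2 ratio of -2.81 (95% exact interval -4.34 to -1.86, counting error only, as for all intervals of ratios here). A neighbouring 3' UTR peak at chr20:44994978-44995418 held 4 and 37 reads, a log2 ratio of -2.66 (-4.89 to -1.47). Both were lower with lactate by more than 2-fold under library sums as well, at -2.35 and -2.06.

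Not all early 3' UTR peaks of STK4 were lower. The 3' UTR peak chr20:45001005-45001513 held 322 and 585 reads, a log2 ratio of 0.25, or 0.00 under library sums. The exon peak chr20:45000218-45000701 beside it had the same 322 and 585 reads in its window, so these cannot be assigned to either peak alone. A further 3' UTR peak, chr20:44975568-44975767, held 7 and 6, a ratio of 0.31, or 1.06 under library sums, which makes it a higher call there. At the end of the gene, the window with most reads of STK4, at the 3' UTR peak chr20:45078708-45079067, held 366 reads with lactate and 765 with ddH2O, or normalized densities of 274 and 257 reads per kb, and its log2 ratio was 0.09 (-0.09 to 0.27), or -0.20 under library sums. Within STK4, then, 3' UTR peaks of different annotated transcripts differed in their ratios, with the lower calls among them confined to 2 neighbouring sites. In an intron, the peak at chr20:45025975-45026174 held 0 reads with lactate and 12 with ddH2O, at least 4.17-fold lower with lactate when the empty window is set to 3 reads, and it was lower by more than 2-fold under library sums too. Another intron peak, chr20:45034411-45034808, held 12 and 5 reads, a log2 ratio of 1.27 (-0.19 to 3.28).

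The highest fold enrichment among the Hippo genes was at the STK4 3' UTR peak chr20:45024786-45025026, with 23.6 over input with lactate (q = 4.28e-56) and 9.04 with ddH2O (q = 2.87e-70). Its comparison window nevertheless held 1 read with lactate and 6 with ddH2O. So few reads were unusual for a peak called this strongly. Among 747 lactate peaks with a −log10 p-value of at least 50, 3 had fewer than 10 reads in their window, and among 2854 such ddH2O peaks, 29 did; this limit was chosen after the values of the STK4 peak were seen. How reads at this site were counted by the peak caller and by MAnorm was not tested, and no ratio is drawn from it.

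STK3 (ENSG00000104375, chr8:98343975-98942610), which encodes MST2, differed from STK4 in having almost only intron peaks, 26 of 27 with lactate and 34 of 36 with ddH2O. Its highest fold was at the intron peak chr8:98698911-98699778, 11.0 with lactate and 16.3 with ddH2O. The window there also had the most reads of the gene, 54 with lactate and 57 with ddH2O, and a log2 ratio of 0.53 (-0.03 to 1.09), or 0.79 under library sums. Over all its windows STK3 held 433 and 546 reads, 1.26 times as many with ddH2O. This is below the factor of the sums without MT-RNR2 and MALAT1 and above that of the full sums.

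Of the 29 merged peaks of STK3 with at least 10 reads, 4 were higher and 2 lower under the authors' scaling, and 9 and 1 under library sums. Over all merged peaks, 11.3% were higher and 24.9% lower under the authors' scaling, and 23.5% and 13.0% under library sums. Counts of calls for single genes, here and below, are to be read against these shares. An intron peak at chr8:98521457-98521837 held 25 and 11 reads in the lactate and ddH2O IP, a log2 ratio of 1.44 (0.44 to 2.68), and one at chr8:98570336-98570682 held 8 and 3, a ratio of 1.23 (-0.58 to 4.03). In the other direction, the intron peak chr8:98605461-98605851 held 1 and 15 reads, a ratio of -2.95 (-9.25 to -1.16). That peak was lower under library sums also, at -2.14. The peak chr8:98456671-98457078 held 3 and 12 reads, and its ratio of -1.59 became -0.84 under library sums, which ends the call.

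LATS1 (ENSG00000131023, chr6:149658153-149718101) encodes a kinase that phosphorylates YAP and TAZ. It had 6 peaks with lactate, 5 of them in introns, and 13 with ddH2O, 11 in introns. Its highest fold was 5.99 with lactate, at the intron peak chr6:149668584-149668835, and 6.60 with ddH2O, at the intron peak chr6:149690661-149690983, and neither overlapped a peak of the other list. The second of these sites held 4 reads with lactate and 17 with ddH2O, a log2 ratio of -1.67 (-3.94 to -0.30) that came to -0.99 under library sums, just inside 2-fold. Opposite to it, the intron peak chr6:149688418-149688704 held 11 and 2 reads, a ratio of 2.06 (0.33 to 5.74). The window with most reads, at chr6:149673101-149673889, held 17 and 42, with a ratio of -0.82 (-1.77 to -0.02). LATS1 had 13 merged peaks with at least 10 reads. It thus had 1 call each way under the authors' scaling, and 5 higher and 0 lower under library sums.

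LATS2 (ENSG00000150457, chr13:20973036-21061586), the second kinase of this pair, had 10 intron peaks in each list and 1 3' UTR peak with lactate. That 3' UTR peak, chr13:20974474-20974674, had the most reads of the gene, 44 with lactate and 35 with ddH2O. Its log2 ratio was 0.85 (0.18 to 1.54) and, under library sums, 1.18, past 2-fold. Over all its windows LATS2 held 156 and 161 reads, 1.03 times as many with ddH2O, the smallest factor of the 10 genes.

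Intron peaks of LATS2 went both ways. The highest folds were 7.89 with lactate, at chr13:21023294-21023559, and 7.69 with ddH2O, at chr13:21017247-21017970. The former site held 15 and 8 reads, a log2 ratio of 1.06 (-0.19 to 2.58). An intron peak at chr13:20990573-20990854 held 9 and 1 reads, a ratio of 2.31 (0.31 to 8.62). The peaks chr13:21003534-21003853, with 5 and 18 reads, and chr13:21028356-21028563, with 2 and 9, had ratios of -1.46 (-3.43 to -0.16) and -1.70 (-5.38 to 0.14). Under library sums the lower calls were lost, at -0.80 and -0.87, and the higher ones were not.

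YAP1 (ENSG00000137693, chr11:102110447-102233424) encodes YAP, the coactivator that the kinases hold back. It had 18 peaks with lactate and 28 with ddH2O, and 13 peaks of each list overlapped the other. It was the only Hippo gene with a 5' UTR peak, at chr11:102110274-102110653 with lactate and chr11:102110268-102110644 with ddH2O. The summits of these calls were 3 bases apart, the first lying 9 bases after the RefSeq start of the gene. The sequence around them is shown because it is the one called site of the 10 genes that a RefSeq promoter entry covers (GRCh38.p14, plus strand, chr11:102110443-102110472), with the stretch from one summit to the other in capitals.
YAP1 5' UTR: ctgtctcagtcggGCGCagccgccgccagg

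At that site the fold over input was 4.76 with lactate and 4.66 with ddH2O, and the window held 25 and 42 reads. The log2 ratio was -0.24, or 0.14 under library sums, so the peak stayed within 2-fold. Of the 223 bases of the lactate peak that the promoter entry covers, 65.9% were G or C. Of the 10 genes, 7 had a promoter entry and YAP1 alone had a peak on one.

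The main site of YAP1 was in the last part of the gene. An exon peak at chr11:102229743-102230165 with lactate and chr11:102229727-102230217 with ddH2O had the gene's highest fold in both lists, 8.74 (q = 1.48e-43) and 14.1 (q = 3.33e-168). Its window held 126 reads with lactate and 289 with ddH2O, or normalized densities of 86.9 and 106 reads per kb. The log2 ratio was -0.28 (-0.60 to 0.02) under the authors' scaling and -0.33 (-0.65 to -0.03) under library sums. Under both scalings it was within 2-fold.

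Under the authors' scaling, calls on YAP1 were all in introns. The peak chr11:102139749-102139958 held 20 reads with lactate and 5 with ddH2O, a log2 ratio of 2.02 (0.76 to 3.99), and it was higher under library sums too, at 2.67. Lower with lactate were chr11:102166985-102167391 with 4 and 21 reads, chr11:102208402-102208601 with 8 and 23, and chr11:102218256-102218455 with 1 and 9. Their log2 ratios were -1.94 (-4.20 to -0.63), -1.13 (-2.61 to -0.03) and -2.33 (-8.63 to -0.33). Library sums turned the second of these into -0.55 and left the others past 2-fold, at -1.27 and -1.46.

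WWTR1 (ENSG00000018408, chr3:149517235-149724788) encodes TAZ, the paralog of YAP. It had 17 peaks with lactate and 34 with ddH2O, and 16 and 31 of these were in introns. The strongest was an intron peak at chr3:149547738-149548193, with a fold of 14.1 with lactate, and 15.4 with ddH2O at chr3:149547831-149548406. Its window held 36 and 57 reads, and the log2 ratio was -0.09 or, under library sums, 0.21. The window with most reads, 26.8% of those of the gene, was at the 3' UTR peak chr3:149518483-149518930, with 155 with lactate and 221 with ddH2O. That peak was called with ddH2O alone, at a fold of 1.84, yet its normalized density was 107 reads per kb with lactate and 81.3 with ddH2O, a log2 ratio of 0.39 (0.08 to 0.69), or 0.35 under library sums.

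WWTR1 had 24 merged peaks with at least 10 reads. Under the authors' scaling 1 of them was higher and 5 lower, and 4 and 1 under library sums. The higher one, the intron peak chr3:149645025-149646041, held 32 and 13 reads, a log2 ratio of 1.61 (0.70 to 2.73), and was higher under library sums too. Next to it, with an overlapping window, the intron peak chr3:149643690-149644413 held 14 and 44 reads, a ratio of -1.17 (-2.21 to -0.34). Neighbouring intron sites thus differed in direction under the authors' scaling. The intron peak chr3:149590901-149591500 held 12 and 46 reads, a ratio of -1.45 (-2.58 to -0.59), and chr3:149550874-149551202 held 4 and 10, a ratio of -1.02 (-3.33 to 0.59). These 3 lower calls ended under library sums, at -0.72, -0.99 and -0.27. The one lower call of WWTR1 under both scalings was the exon peak chr3:149656823-149657097, with 2 and 12 reads and a ratio of -2.04 (-5.71 to -0.34), or -1.25 under library sums.

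TEAD1 (ENSG00000187079, chr11:12674421-12944737) encodes a DNA-binding factor through which YAP and TAZ act. It had 15 peaks with lactate and 36 with ddH2O, including 3 and 4 in the 3' UTR. Its window with most reads, at the 3' UTR peak chr11:12943579-12943934, was the deepest of the 10 genes, with 535 reads with lactate and 1098 with ddH2O, or normalized densities of 412 and 357 reads per kb. There the direction rests on the scaling. The log2 ratio was 0.21 (0.05 to 0.36) under the authors' scaling and -0.17 (-0.33 to -0.02) under library sums. Both intervals are clear of 0 on opposite sides, and neither value reached 2-fold. The highest ddH2O fold of the gene, 7.18, was at the 3' UTR peak chr11:12942586-12943224, where the lactate fold was 5.22 and the window held 347 and 759 reads.

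Introns of TEAD1 held 3 sites that were higher with lactate. Between 95.3 and 122 kb from the gene start, the peaks chr11:12769416-12769974, chr11:12792000-12792898 and chr11:12795810-12796712 were called in both lists and held 26 and 7, 20 and 8, and 36 and 12 reads with lactate and ddH2O. Their log2 ratios were 2.04 (0.93 to 3.62), 1.49 (0.34 to 2.98) and 1.89 (0.99 to 3.04). All 3 were higher under library sums too, at 2.62, 2.09 and 2.37, although ddH2O had more reads in the gene as a whole, 2880 against 1519. They do not form an unbroken group. Between the first and the second lay intron peaks at chr11:12774445-12775053, with 11 and 18 reads and a log2 ratio of -0.38, and at chr11:12781103-12781937, with 17 and 30 reads and a ratio of -0.39, both called in both lists. Under library sums these came to 0.20 and 0.08, so they stayed within 2-fold under both scalings. Upstream of them all, chr11:12733798-12734301 held 3 and 11 reads, a ratio of -1.49 (-4.26 to 0.14) that was -0.72 under library sums. The gene's highest lactate fold, 14.4, was at a further intron peak, chr11:12870150-12870992, where the ddH2O fold was 5.88. Its window held 103 and 123 reads, and its log2 ratio was 0.53 (0.13 to 0.91), or 0.61 under library sums.

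The other TEAD factors, which bind the same partners, had few peaks and no call under either scaling. TEAD2 (ENSG00000074219, chr19:49340595-49362416) had a 3' UTR peak in both lists, at chr19:49340492-49341074 with ddH2O, with a fold of 1.80 with lactate (q = 0.392) and 3.09 with ddH2O (q = 3.69e-16). The window held 47 and 118 reads, a log2 ratio of -0.63 (-1.17 to -0.15), or -0.45 (-0.99 to 0.03) under library sums. An exon peak of TEAD2, chr19:49342278-49342477, was called with lactate alone at a fold of 3.04, with 6 reads and 0.

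TEAD4 (ENSG00000197905, chr12:2959397-3040676) had 2 peaks with lactate and 6 with ddH2O. Its highest folds, 4.28 and 4.85, were at the intron peak chr12:2995769-2995974, where the windows held 7 and 8 reads. The exon peak at the end of the gene, chr12:3040016-3040794, held 46 and 85 reads, a log2 ratio of -0.23 (-0.80 to 0.29), or -0.01 under library sums. TEAD3 (ENSG00000007866, chr6:35473597-35497079) had a single intron peak, with ddH2O, at chr6:35478055-35478254, with a fold of 3.03 and a q-value of 0.140. Its window held 3 and 5 reads, too few for a ratio, so a difference at TEAD3 was not detectable at this depth.

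The wider pathway was set beside these genes through 4 lists of genes that act before, with or after them. Shares of calls are to be read against all merged peaks, of which 11.3% were higher and 24.9% lower under the authors' scaling and 23.5% and 13.0% under library sums. Genes are named by their deepest window or, among merged peaks with at least 20 reads, by their ratio under the authors' scaling, so an empty window facing fewer reads is not ranked. Of 37 upstream and scaffold proteins, 31 had a lactate peak and 34 a ddH2O peak. Of their 364 merged peaks with at least 10 reads, 48 were higher and 90 lower (13.2% and 24.7%), close to all merged peaks, and 93 and 48 under library sums. Most reads fell at MAP4K4, NF2 and SLMAP, whose leading windows held 457 and 612, 296 and 507, and 217 and 437 reads with lactate and ddH2O. The highest ratios were at TJP1 (24 and 0 reads, at least 8.10-fold higher), WTIP (23 and 5, log2 2.23, or 2.86 under library sums) and TAOK1 (22 and 8, 1.63, or 2.22). The lowest were at TJP1 (2 and 36, -3.42, or -2.76), PARD3 (2 and 35, -3.39, or -2.72) and LIMD1 (1 and 21, -3.37, or -2.60), all past 2-fold under both scalings.

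Among 15 proteins that retain YAP and TAZ in the cytoplasm or turn them over, each had a merged peak. Of their 124 merged peaks with at least 10 reads, 16 were higher and 22 lower (12.9% and 17.7%), and 30 and 10 under library sums. The 14-3-3 genes had the most reads, with 1429 and 2767 at YWHAB, 716 and 1662 at YWHAE and 634 and 1209 at YWHAG. The highest log2 ratios, in introns, were at FBXW11 (26 and 5 reads, 2.42, or 3.03 under library sums), YWHAQ (52 and 17, 2.02, or 2.42) and YWHAG (27 and 10, 1.67, or 2.21). BTRC (2 and 25, -2.96, or -2.25), CUL1 (2 and 22, -2.80, or -2.08) and AMOT (2 and 21, -2.74, or -2.01) had the lowest, and these too passed 2-fold under both scalings.

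For 16 nuclear cofactors of TEAD, 31 of 161 merged peaks were higher and 24 lower (19.3% and 14.9%), the one list with more higher than lower calls under the authors' scaling, and 55 and 10 under library sums. SMAD3 had the most reads, 442 with lactate and 689 with ddH2O, and the leading window of ZEB1 held 205 and 323. The highest log2 ratios, in introns, were at RUNX1 (20 and 3 reads, 2.56, or 3.26 under library sums), NCOA3 (17 and 5, 1.78, or 2.45) and ZEB1 (17 and 6, 1.58, or 2.23). The lowest were at SMAD2 (5 and 16, -1.31, interval -3.29 to 0.03), SMAD4 (9 and 29, -1.26, -2.63 to -0.25) and ZEB1 (11 and 33, -1.14, -2.36 to -0.21). Under library sums these became -0.64, -0.72 and -0.64, so these lower calls end. Other merged peaks of the list, 10 in all, were lower under library sums, among them empty lactate windows in introns of ARID1A (0 and 17 reads, at least 5.75-fold lower, or 3.12-fold) and NCOA1 (0 and 14, at least 4.81-fold, or 2.57-fold).

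Of 22 target genes of YAP, TAZ and TEAD, 17 had a merged peak. Of their 204 merged peaks with at least 10 reads, 29 were higher and 48 lower (14.2% and 23.5%), close to all merged peaks, and 57 and 25 under library sums. ASAP1 (434 and 856 reads), AXL (441 and 730) and CCN2 (327 and 419) led by reads, all in the 3' UTR. MYC (22 and 2, log2 3.08, or 3.80 under library sums), ASAP1 (18 and 4, 2.11, or 2.79) and AXL (21 and 7, 1.72, or 2.32) had the highest ratios. DOCK5 (1 and 28, -3.74, or -3.00), CRIM1 (1 and 23, -3.49, or -2.72) and MYOF (2 and 21, -2.74, or -2.01) had the lowest, all past 2-fold under both scalings.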

How the data were processed

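The authors called peaks separately for the lactate and ddH2O IP, each over its matched input and without pooling. For each peak the deposited lists give a fold enrichment (a ratio), a −log10 p-value and a q-value, with the gene, the region and the length in bases. The submitters' processing notes name fastp 0.20.1, HISAT2 2.1.0, MACS2 2.2.7.1, bedtools 2.29.2, HOMER 4.11.1 and DiffBind, with GRCh38 and hg38. The authors merged both lists and applied MAnorm, and the deposited table holds a normalized signal (read density) per IP library. Its columns M_value, A_value and P_value hold the authors' comparison of lactate with ddH2O (log2 ratio, mean log2 density and p-value) and were not used.

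Reads per window of 2000 bases were computed back from both densities, on the basis that 1 read is added and a straight line in the mean log2 density (slope 0.169, intercept -0.204) is taken off. Both windows came within 0.05 reads of whole numbers at 116482 of 116484 merged peaks, among them all 218 of the Hippo genes. On simulated windows with known reads, the step gave the reads back in nearly all of 116484 windows for each of 3 lines. Those windows were built on the same basis, so this checks the arithmetic and not how the deposited densities were made. Library sums leave out MT-RNR2 and MALAT1, and the depth of the input libraries is unknown. Starts in the merged table are counted from 0 and are printed from 1. No per-sample column was left unused. The centres of all 295 Hippo gene peaks lay on the RefSeq (GRCh38.p14) span of their gene. Some peaks ran past that span, among them the YAP1 5' UTR peaks and the ddH2O peaks at the ends of TEAD2 and TEAD4.

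Intervals of ratios are Clopper-Pearson (95%) on the reads. No test across samples was possible and no p-value was computed. Members and lists were chosen with earlier results of these data known. Named were all members with their deepest merged peak, their highest fold in each list and up to 4 called merged peaks (those with most reads), and per list the 3 genes with most reads and the 3 with the greatest ratio each way at 20 or more reads; 1 gene that this rule names among the nuclear cofactors is not reported here. Further peaks of STK4, TEAD1, WWTR1, ARID1A and NCOA1 were named outside this rule, after their values were seen. The YAP1 5' UTR peak was outside it too, and was shown because a RefSeq promoter entry covers it. Sequence features of the peaks (GC share, CNGGG matches) were not run, as no genome was used here, apart from the part of the YAP1 5' UTR peak inside a RefSeq promoter entry. Alternatives were library sums, other fold, read and q-value limits, equal list sizes and a 50% overlap. The work ran on matplotlib 3.10.9, scipy 1.17.1, pandas 2.3.3, numpy 2.4.6 and Python 3.11.15.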

Additional observations from a re-analysis of the deposited data

How the results depend on the processing

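Intron shares were the steadiest values. They came to 82.9% and 81.2% at a fold enrichment of at least 4 with lactate and ddH2O, and to 74.0% and 75.5% at a q-value below 0.05, the last falling outside the interval of the full ddH2O list. Counts of Hippo gene peaks moved further: 41 with lactate and 64 with ddH2O at a fold of at least 4, 50 and 98 at a q-value below 0.05, and 104 with ddH2O at equal list sizes. Peaks found in the other list fell to 40.5% and 24.5% at an overlap of 50%, by construction. Under library sums 34 merged peaks were higher and 7 lower, and the median log2 ratio of the Hippo genes changed sign, to 0.19. Higher and lower calls numbered 5 and 6 at a fold of 4, 27 and 66 with no read minimum, 7 and 8 at 20 reads, 0 and 3 at 50 reads, and 0 and 4 among exon and UTR peaks; joining peaks by 50% overlap left 13 and 17. With library sums the lists gave 93 higher and 48 lower calls for upstream and scaffold proteins, 30 and 10 for retention and turnover, 55 and 10 for nuclear cofactors and 57 and 25 for target genes. No paired analysis was possible because 1 IP library stood for each condition, and for the same reason no library could be left out. Depth limits the rest: the median window of the Hippo genes held 7 and 8 reads, 133 of 218 merged peaks had at least 10 reads, and peaks with few reads carry wide intervals. Sequence features planned for the peaks were not run.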
